A study of Mus musculus with 4 samples.

Results

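Prostaglandins and leukotrienes are lipid mediators made from arachidonic acid. To examine the genes that make and clear them, 10 genes were followed in sorted adipose stromal vascular cells: the cyclooxygenases Ptgs1 and Ptgs2, the prostaglandin D synthases Ptgds and Hpgds, the prostaglandin E synthase Ptges, the prostacyclin synthase Ptgis, the dehydrogenase Hpgd, and the leukotriene genes Alox5, Alox5ap and Ltc4s. The genes were taken by symbol from the array annotation. Of the 10, 9 had a probe, with 15 probes in all, among 19057 genes and 45281 probes on the array. Expression had been read on Illumina Mouse-6 V2 BeadChips. There were 4 libraries: 2 labelled null GFP+ (numbers 1 and 3), 1 labelled het GFP+ (number 2) and 1 labelled null GFP- (number 3).

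All libraries came from adipose tissue of mice aged 2 months, given as strain Black 6, whereas the methods of the study give a mixed background for its mouse lines. The AdipoTrak system that marks progenitors places tTA in the Pparg locus, and tTA turns on a histone-GFP reporter and, through TRE-Cre, can delete a floxed Pparg allele. The genotypes are labelled PPARG null and PPARG het, so the comparison library also carries a changed Pparg allele, and no wild-type library was analysed here. The results of the study name the AdipoTrak deletion strain and its methods the Sox2-Cre strain, in which deletion starts in the epiblast. The labels do not say which strain was used or which mice went into each library. GFP+ cells mark the Pparg lineage, whereas GFP- cells are the rest of the live stromal vascular cells.

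Before the eicosanoid genes, the targeted gene was examined. On its brightest probe, Pparg read 3217 and 2479 in the null-labelled GFP+ libraries, against 188 in the het-labelled GFP+ library and 209 in the null-labelled GFP- library. Its log2 difference from het GFP+ was 4.84 (adjusted p = 0.00926, limma). These levels go against the genotype labels, and directions below hold for the labels as given. Whether the probes lie within the floxed exons could not be determined. All 8 tested stromal progenitor genes, such as Dcn and Col1a1, were above background in all 4 libraries. The het-labelled GFP+ library was closer to the null-labelled GFP- library (621 of 17379 tested probes over 2-fold apart) than to the null-labelled GFP+ libraries (1941 and 2545), which were 806 probes apart from each other.

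In this pathway, phospholipases release arachidonic acid from membranes, and cyclooxygenases turn it into the unstable prostaglandin H that terminal synthases convert into single prostaglandins. In a second branch, 5-lipoxygenase (Alox5) works with its membrane partner FLAP (Alox5ap) to make the first leukotriene, which Ltc4s conjugates with glutathione. Leukotriene synthesis is best known in mast cells, neutrophils, eosinophils and macrophages, whereas prostacyclin and prostaglandin E are also made by stromal and vascular cells. Dehydration products of prostaglandin D are candidate ligands of PPARγ.

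The sequence before the start site is shown for a gene that was lower in the null-labelled GFP+ libraries (Alox5), one that was level across the libraries (Ptges) and one that was highest in the null-labelled GFP- library (Ltc4s). RefSeq promoter sequences (GRCm38.p6) matched 8 of the 10 genes. Each line gives the 250 bases before the annotated start in the gene's own 5′ to 3′ direction, with the GC box GGGCGG, on either strand, in capitals.
Alox5 (chr6:116461179-116461428, minus strand): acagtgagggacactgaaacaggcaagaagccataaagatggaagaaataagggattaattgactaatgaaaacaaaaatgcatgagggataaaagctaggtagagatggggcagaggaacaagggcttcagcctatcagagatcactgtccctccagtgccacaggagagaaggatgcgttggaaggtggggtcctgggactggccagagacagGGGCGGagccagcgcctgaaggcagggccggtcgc
Ptges (chr2:30903298-30903547, minus strand): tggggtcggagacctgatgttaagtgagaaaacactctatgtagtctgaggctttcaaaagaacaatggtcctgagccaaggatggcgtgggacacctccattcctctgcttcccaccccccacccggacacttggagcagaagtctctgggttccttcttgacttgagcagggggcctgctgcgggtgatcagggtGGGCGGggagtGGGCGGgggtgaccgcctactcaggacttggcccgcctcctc
Ltc4s (chr11:50238533-50238782, minus strand): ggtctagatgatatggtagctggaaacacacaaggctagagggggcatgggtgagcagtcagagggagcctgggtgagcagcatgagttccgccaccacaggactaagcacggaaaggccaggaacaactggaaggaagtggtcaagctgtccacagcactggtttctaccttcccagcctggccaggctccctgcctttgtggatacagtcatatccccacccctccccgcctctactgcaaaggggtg
The GC box occurred 1 time in the Alox5 window, 2 times in the Ptges window and 0 times in the Ltc4s window, and 32.7% of 32851 mouse promoter windows of this length hold at least 1. Alox5 was the single gene of the 8 with GATAA on either strand (1 site), a core that 22.6% of windows hold. AGGTCA, a core bound by nuclear receptors, and TATAAA were each found in 0 of the 8 windows, against 14% and 12.4% of all windows. These matches describe the letters in the windows and say nothing of factor binding.

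The leukotriene genes Alox5ap and Alox5 were lower in the null-labelled GFP+ libraries than in both other libraries. The other 5 tested genes did not pass a test in either comparison. They were the leukotriene gene Ltc4s and the prostaglandin genes Ptges, Ptgis, Hpgd and Hpgds. Against the het-labelled GFP+ library, 2 of the 7 tested genes were called lower and 0 higher at an adjusted p under 0.05 from limma. Over all 9975 genes tested, 2.61% were called lower and 1.31% higher in that comparison. Against the null-labelled GFP- library, again 2 of the 7 were called lower and 0 higher, where 2.64% of all genes were called lower and 1.3% higher. Both comparisons use the same null-labelled GFP+ libraries, and the genes called were Alox5 and Alox5ap in each. Alox5 was below background in both null-labelled GFP+ libraries and entered the test only through the libraries where it was higher. With no filter on dim probes, neither gene was called. At an unadjusted p under 0.05, 3 genes passed in each comparison, which were all lower, where 16.9% of all genes passed against het GFP+ and 16.2% against null GFP-. By fitted size, 3 were over 2-fold lower and 0 over 2-fold higher in each comparison, and all genes gave 6.57% lower and 5.59% higher against het GFP+ and 7.3% lower and 5.43% higher against null GFP-. Against het GFP+ the 3 include Hpgds, which was below background in both null-labelled GFP+ libraries and was not over 2-fold lower without background correction or with an offset of 50. The remaining genes were 5 that did not pass, Ptgs2 and Ptgds, which no array detected, and Ptgs1, which had no probe by symbol and was not analysed here. Intensities below are the deposited values on a linear scale, where a probe was taken as above background from 153 upwards.

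**Figure D1:**
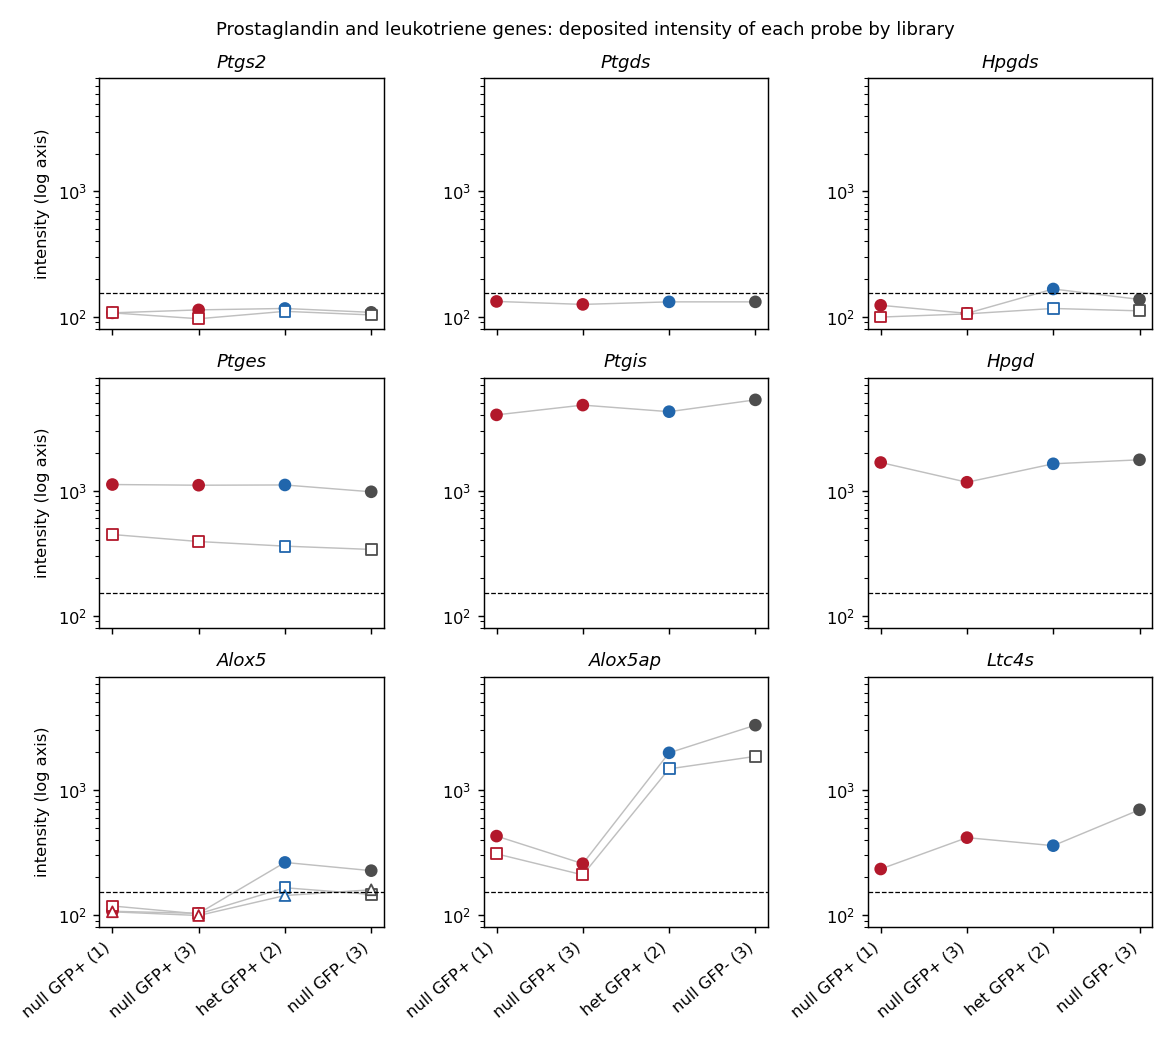
Deposited probe intensity (vertical log axis) of 9 genes in the 4 libraries. Filled circles are the brightest probe of a gene, open squares and triangles its other probes, lines join the values of a probe, red marks null GFP+, blue het GFP+ and grey null GFP-, and the dashed line marks the detection signal of 153. Alox5ap read 427 and 257 in the null-labelled GFP+ libraries and 1977 and 3288 in the het-labelled GFP+ and null-labelled GFP- libraries, while Ptges stayed between 979 and 1119.

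Alox5ap encodes FLAP, the membrane protein that presents arachidonic acid to 5-lipoxygenase. Its brighter probe read 427 and 257 in the null-labelled GFP+ libraries, against 1977 in the het-labelled GFP+ library and 3288 in the null-labelled GFP- library. Both null-labelled GFP+ libraries lay below both others. The log2 difference was -3.00 from het GFP+ (8.03-fold lower, standard error 0.48, adjusted p = 0.0454 from limma) and -3.77 from null GFP- (13.6-fold lower, adjusted p = 0.0276). A second probe read 308 and 209, against 1471 and 1852, and differed by -3.12 and -3.47 on the log2 scale (adjusted p = 0.0334 and 0.027 from limma). The 2 probes of Alox5ap thus gave the same call in both comparisons. Alox5ap was above background in all 4 libraries, so its fold is measured and not a bound. The folds are from background-corrected values. Without background correction the log2 differences of the brighter probe were smaller, at -2.58 and -3.31.

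Alox5 encodes 5-lipoxygenase, the enzyme that starts leukotriene synthesis. Its brightest probe read 107 and 103 in the null-labelled GFP+ libraries, against 263 in the het-labelled GFP+ library and 226 in the null-labelled GFP- library. The probe was not above background in either null-labelled GFP+ library and passed the detection filter only through the other libraries. It was at least 1.72-fold lower than in het GFP+ (adjusted p = 0.0147 from limma) and at least 1.48-fold lower than in null GFP- (adjusted p = 0.0223). Each such bound is a ratio of deposited intensities in which a dim library below the detection signal of 153 is set to that signal, while the adjusted p is from background-corrected values. The other Alox5 probes were dimmer, read 118 and 102 against 165 and 146 for one and 106 and 99 against 143 and 159 for the other, and missed the threshold (limma, adjusted p = 0.0963 and 0.164 against het GFP+, 0.217 and 0.077 against null GFP-). The 3 probes lay in the same direction.

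Ltc4s, which makes the cysteinyl leukotrienes by adding glutathione, did not follow Alox5ap and Alox5 in its values. It read 233 and 415 in the null-labelled GFP+ libraries, against 358 in the het-labelled GFP+ library and 693 in the null-labelled GFP- library. The null-labelled GFP+ libraries lay on either side of the het-labelled GFP+ library, with a log2 difference of -0.32 (95% interval -1.69 to 1.06, adjusted p = 0.843 from limma). Against null GFP- the difference was -1.50 (95% interval -2.87 to -0.12, adjusted p = 0.289), lower in both libraries but not past the threshold after adjustment. It was -0.90 without null GFP+ library 1 and -2.10 without library 3. Library 1 minus library 3 of the null-labelled GFP+ pair was -1.20 on the log2 scale for Ltc4s, the widest gap of the 7 genes tested, and 1.02 for Alox5ap. Against het GFP+ the sign of Ltc4s turned with the library used, at 0.28 without library 1 and -0.92 without library 3.

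The calls of Alox5ap and Alox5 were lost under 2 of the alternatives. With all probes tested, neither passed against het GFP+ (adjusted p = 0.213 and 0.0528 from limma) or against null GFP- (adjusted p = 0.149 and 0.065), and neither passed after Benjamini-Hochberg adjustment by the methods' t-test. Before adjustment that t-test gave Alox5 a p under 0.05 in both comparisons and Alox5ap in neither.

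**Figure D2:**
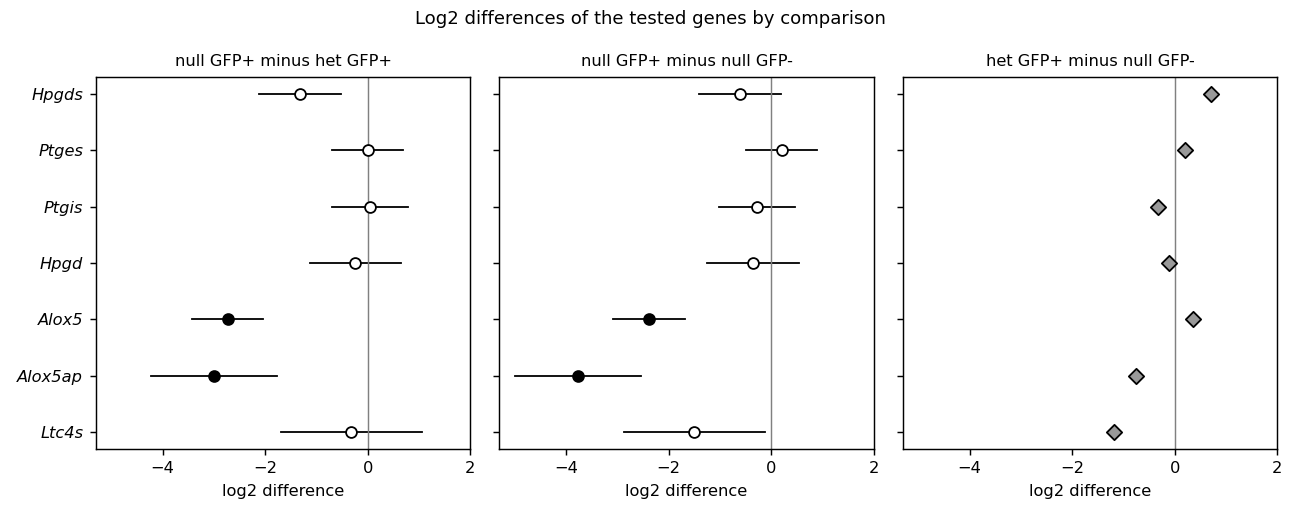
Log2 difference (horizontal axis) of the brightest tested probe of 7 genes in 3 comparisons. Circles with bars are limma estimates with 95% intervals, filled where the adjusted p was under 0.05, and grey diamonds are single-library differences with no test. Alox5 and Alox5ap have filled circles between -3.77 and -2.38, while the intervals of Ptges, Ptgis and Hpgd all cross 0.

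Turning to the terminal prostaglandin synthases, Ptgis makes prostacyclin, a vasodilator. It read 4033 and 4827 in the null-labelled GFP+ libraries, against 4277 in the het-labelled GFP+ library and 5316 in the null-labelled GFP- library. The het-labelled GFP+ library fell between the null-labelled GFP+ libraries, and the log2 difference was 0.05 (95% interval -0.70 to 0.79, adjusted p = 0.967 from limma). Against null GFP- it was -0.27 (95% interval -1.02 to 0.47, adjusted p = 0.781).

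Ptges, the inducible microsomal synthase of prostaglandin E, had the smallest range of the 7 tested genes on its brighter probe. That brighter probe read 1119 and 1105 in the null-labelled GFP+ libraries, against 1110 in the het-labelled GFP+ library and 979 in the null-labelled GFP- library. The log2 difference was 0.00 from het GFP+ (95% interval -0.69 to 0.70, adjusted p = 0.998 from limma) and 0.20 from null GFP- (95% interval -0.49 to 0.90, adjusted p = 0.837). Its dimmer probe read 446 and 392, against 360 and 339, and its log2 differences were 0.28 and 0.40 (adjusted p = 0.725 and 0.644). The brighter probe ranged over 0.21 on the log2 scale in the 4 libraries and the dimmer probe over 0.52, beside 0.41 for Ptgis and 4.28 for Alox5ap.

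Hpgd oxidizes and thereby inactivates prostaglandins. It read 1678 and 1167 in the null-labelled GFP+ libraries, against 1639 in the het-labelled GFP+ library and 1764 in the null-labelled GFP- library. The null-labelled GFP+ library with number 3 was the lowest and the other 3 were close together. The log2 difference was -0.24 from het GFP+ (95% interval -1.13 to 0.65, adjusted p = 0.811 from limma) and -0.36 from null GFP- (adjusted p = 0.755).

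The genes upstream and on the prostaglandin D arm were at or near background. Hpgds, the haematopoietic prostaglandin D synthase, read 123 and 106 in the null-labelled GFP+ libraries, against 166 in the het-labelled GFP+ library and 137 in the null-labelled GFP- library, and only 166 was above the detection signal. It was at least 1.08-fold lower in the null-labelled GFP+ libraries than in the het-labelled GFP+ library, which missed the threshold (limma, adjusted p = 0.125), and a second Hpgds probe was detected on no array. Ptgds, the lipocalin-type synthase, read 132 and 125 in the null-labelled GFP+ libraries, against 131 in each of the others. Ptgs2, the inducible cyclooxygenase, had 2 probes between 96 and 116 in all libraries. For Ptgs2 and Ptgds the arrays gave no measured level, which does not show that the transcripts were absent.

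Mast cell, neutrophil and macrophage markers moved with Alox5ap and Alox5, while lists of other blood cells, given in the last section, were mixed. The summed intensity of 10 tested mast cell genes was 2149 and 2237 in the null-labelled GFP+ libraries, against 74826 in the het-labelled GFP+ library and 75688 in the null-labelled GFP- library, and all 10 passed as lower in both comparisons (limma). Of these 10, only 5 and 3 were above background in null-labelled GFP+ libraries 1 and 3. Marker genes below background in both entered the test only through the libraries where they were higher. Mcpt4, a mast cell protease, read 184 and 132, against 20898 and 19475, and Cpa3, a mast cell carboxypeptidase, read 169 and 135, against 17932 and 17212. The sum of 7 neutrophil genes was 906 and 980, against 27419 and 27606, with 6 of 7 lower in each comparison. Of these 7, 0 and 2 were above background in null-labelled GFP+ libraries 1 and 3. The alarmin genes read 151 and 193, against 11929 and 11799, for S100a8 and 116 and 125, against 6318 and 6348, for S100a9. For 8 macrophage genes the sum was 2285 and 1612, against 16940 and 9750, with 7 lower against het GFP+ and 6 against null GFP-. The complement genes were C1qb at 610 and 316, against 4778 and 2440, and C1qc at 437 and 292, against 4367 and 1956. Among eosinophil genes 1 of 8 was tested, the granule gene Prg2 at 185 and 244, against 497 and 361, which did not pass. The part of these cells in the leukotriene gene results was not tested, and in sorted bulk RNA fewer cells of a type and less RNA per cell cannot be told apart.

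Markers of other stromal vascular cells did not share a direction, and some were lower like the blood cell markers. The sum of 8 stromal progenitor genes was 160629 and 179279 in the null-labelled GFP+ libraries, against 200803 and 203300 in the het-labelled GFP+ and null-labelled GFP- libraries, with 1 gene lower and 0 higher in each comparison. The lower gene, named after its values were seen, was Pi16, at 7689 and 7894, against 30298 and 28139. Dcn, a matrix proteoglycan, read 42417 and 44000, against 46894 and 42016, and Col1a1 read 32518 and 43605, against 43303 and 41828. The endothelial sum over 10 genes was 12814 and 11642, against 7707 and 5705, with 7 and 8 of 10 higher in the 2 comparisons. Of these 10, 8 were above background in the het-labelled GFP+ library and 8 in the null-labelled GFP- library. The angiopoietin receptor gene Tek, which did not pass, read 3061 and 2097, against 5293 and 3815, and Esam, a junction protein, read 2188 and 2301, against 507 and 354. The adipocyte sum over 6 genes was 6693 and 14447, against 813 and 761, with 4 of 6 higher in each comparison, among them Car3 at 3920 and 6566, against 276 and 178, and Plin4 at 1311 and 3171, against 110 and 138. Only 1 of the 6 adipocyte genes was above background in the het-labelled GFP+ library, and 1 in the null-labelled GFP- library. Adipocyte genes below background in both, such as Plin4, entered the test only through the null-labelled GFP+ libraries where they were higher. Mural genes summed to 5232 and 8942, against 3724 and 7519, with the actin gene Acta2 at 3388 and 6755, against 2462 and 6048, and Des at 374 and 369, against 344 and 332. Of 8 mural genes tested, 1 was higher and 0 lower in each comparison. Mesothelial genes summed to 532 and 711, against 808 and 822, with Upk3b at 117 and 141, against 375 and 289, and Krt19 at 186 and 158, against 157 and 259. Of 4 mesothelial genes tested, 1, Upk3b, was lower and 0 higher in each comparison. Skeletal muscle genes summed to 701 and 756, against 3244 and 868, with Acta1 at 137 and 143, against 1442 and 208, and Tnnc2 at 149 and 162, against 715 and 172. Of 5 skeletal muscle genes tested, 4 were lower against het GFP+ and 0 against null GFP-, with 0 higher in either. The part of these cells in the values of Ptgis, Ptges and Hpgd was not tested.

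The het-labelled GFP+ library was then set against the null-labelled GFP- library, with no replicate on either side and therefore no test. Genotype and sort gate both differ by label here and cannot be told apart. Of the 7 genes, 1 differed by over 2-fold, Ltc4s, which was 2.27-fold lower in the het-labelled GFP+ library (358, against 693), and 0 were over 2-fold higher, where 1.78% of all genes were over 2-fold lower and 1.26% higher. Without background correction Ltc4s fell short of 2-fold, with a log2 difference of -0.96. Alox5ap had a log2 difference of -0.76 (1977, against 3288), whereas Alox5 ran the other way at 0.35 (263, against 226). The median log2 differences were 0.02 each for mast cell and neutrophil genes, 0.79 for macrophage genes and -0.20 for genes shared by leukocytes. Those shared genes ran from -0.95 to 0.12, with Coro1a at -0.57 and Laptm5 at -0.23. The median over all genes was -0.03.

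To place the genes that varied, each with a range over 2 on the log2 scale was set beside the 5 named genes with the smallest root mean square distance between centred log2 values over the 4 libraries. Nearest to Alox5ap was Coro1a, a coronin of leukocytes, at 441 and 262 in the null-labelled GFP+ libraries, against 2425 and 3562, with a distance of 0.11. Cytip, Nfkbid, Laptm5 (a lysosomal protein of blood cells) and the chemokine gene Ccl9 followed, at distances of 0.16 to 0.20. Nearest to Alox5 was Ctsg, a granule protease, at 95 and 101, against 273 and 223, with a distance of 0.10. Alox5 and Ctsg were both below background in the null-labelled GFP+ libraries, so this distance rests partly on values near background. Uchl1, at 198 and 198, against 742 and 707, and Itgbl1, at 980 and 1012, against 5165 and 4814, followed at 0.10 and 0.11. Both were above background in all 4 libraries. Ifitm6 and Stfa2 came next. Nearest to Ltc4s was Plxdc1 at 147 and 212, against 213 and 338, followed by Nr4a2, Lst1, Rhbdl2 and Erich5. These distances are over 4 libraries and 9719 genes, of which many have similar profiles, and are given as a description.

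**Figure D3:**
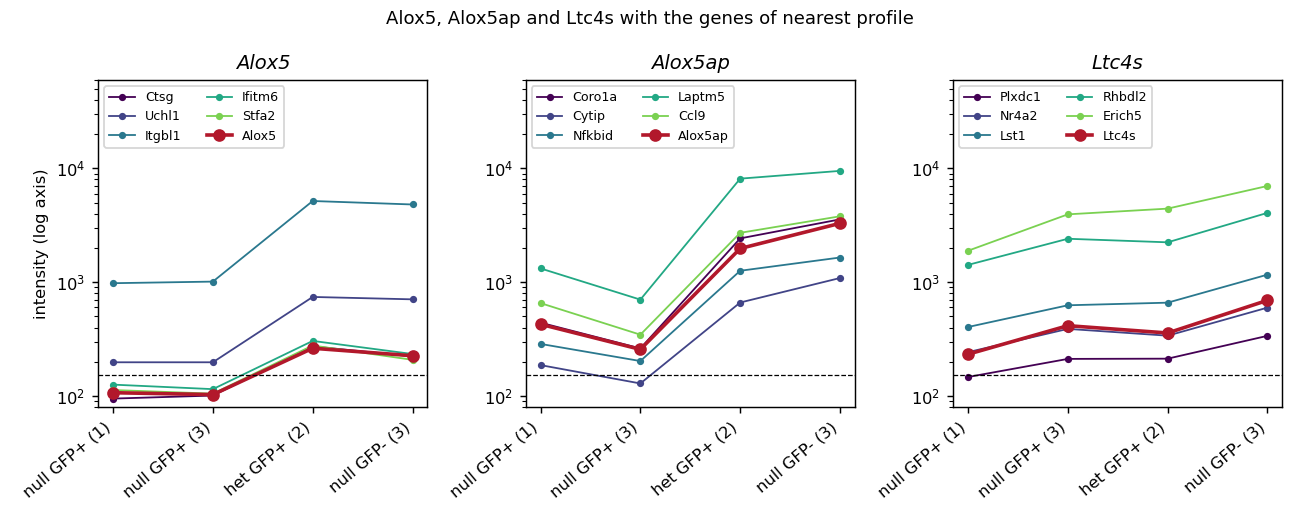
Deposited intensity (vertical log axis) of Alox5, Alox5ap and Ltc4s (thick red) and the 5 genes nearest to each over the 4 libraries (thin lines, which join the values of a gene). The dashed line marks the detection signal of 153. Alox5ap and the 5 genes beside it each have their lowest value in null GFP+ library 3 and their highest in null GFP-.

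The rest of the pathway was examined with 64 further genes grouped by role, of which 34 were tested. Against the het-labelled GFP+ library, 2 genes passed limma as higher and 2 as lower while 30 missed the threshold, with a median log2 difference of -0.14 beside 0.05 over all genes, of which 1.31% were called higher and 2.61% lower. Against the null-labelled GFP- library, 2 genes passed as higher and 5 as lower while 27 missed the threshold, with a median of -0.07 beside 0.02 over all genes, of which 1.3% were called higher and 2.64% lower. Of the lower genes, Cyp4f18, Alox15 and Ltb4r1 were below background in both null-labelled GFP+ libraries and, like Alox5, entered the test only through the libraries where they were higher.

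Genes of transport and breakdown went both ways. Slco2a1, the prostaglandin transporter that takes prostaglandins into cells, read 1095 and 1312 in the null-labelled GFP+ libraries, against 343 in the het-labelled GFP+ library and 270 in the null-labelled GFP- library. It was higher by a log2 difference of 2.14 and 2.64 (adjusted p = 0.0319 and 0.0208 from limma), and the other tested transporter gene, Abcc4, named after its values were seen, did not pass. Ephx2, the soluble epoxide hydrolase that breaks down epoxides of arachidonic acid, read 630 and 889, against 201 and 199, and was higher by 2.60 and 2.62 (adjusted p = 0.0305 for each). In contrast, Cyp4f18, which inactivates leukotriene B in mouse neutrophils, was below background at 109 and 112, against 222 and 558, and was at least 1.45-fold and 3.65-fold lower (adjusted p = 0.0238 and 0.0118). The other 8 tested genes of breakdown did not pass in either comparison.

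Among the lipases and other synthases, lower genes were most numerous against the null-labelled GFP- library. Daglb, a diacylglycerol lipase whose product feeds the arachidonic acid pool, read 2356 and 1793, against 4377 and 9885. It was lower by a log2 difference of -2.32 from null GFP- (adjusted p = 0.0312 from limma) and differed by -1.13 from het GFP+, which did not pass (adjusted p = 0.178). Akr1c18, an aldo-keto reductase known for progesterone breakdown that can also make prostaglandin F, read 895 and 716, against 2627 and 7067, with log2 differences of -1.84 and -3.30 (adjusted p = 0.0499 and 0.0156). Alox15, the 12/15-lipoxygenase, was above background only in the null-labelled GFP- library (110 and 97, against 103 and 195), and the null-labelled GFP+ libraries were at least 1.27-fold lower than it (adjusted p = 0.0351). Of the 7 receptor genes tested, 1 passed, Ltb4r1, the leukotriene B receptor, which read 131 and 124, against 191 and 294, and was at least 1.92-fold lower than in null GFP- (adjusted p = 0.0226). Mast cell, neutrophil and macrophage markers moved with Cyp4f18 and Akr1c18 in both comparisons, as did the stromal gene Pi16. Endothelial and adipocyte sums moved with Ephx2 and Slco2a1. Between het GFP+ and null GFP-, Cyp4f18 read 222, against 558, and Akr1c18 read 2627, against 7067. There the mast cell sum was 74826, against 75688, the neutrophil sum 27419, against 27606, and the macrophage sum 16940, against 9750. The part of these cells was not tested. Alox15 was below background in the null-labelled and het-labelled GFP+ libraries, so no difference between them was measured.

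**Figure D4:**
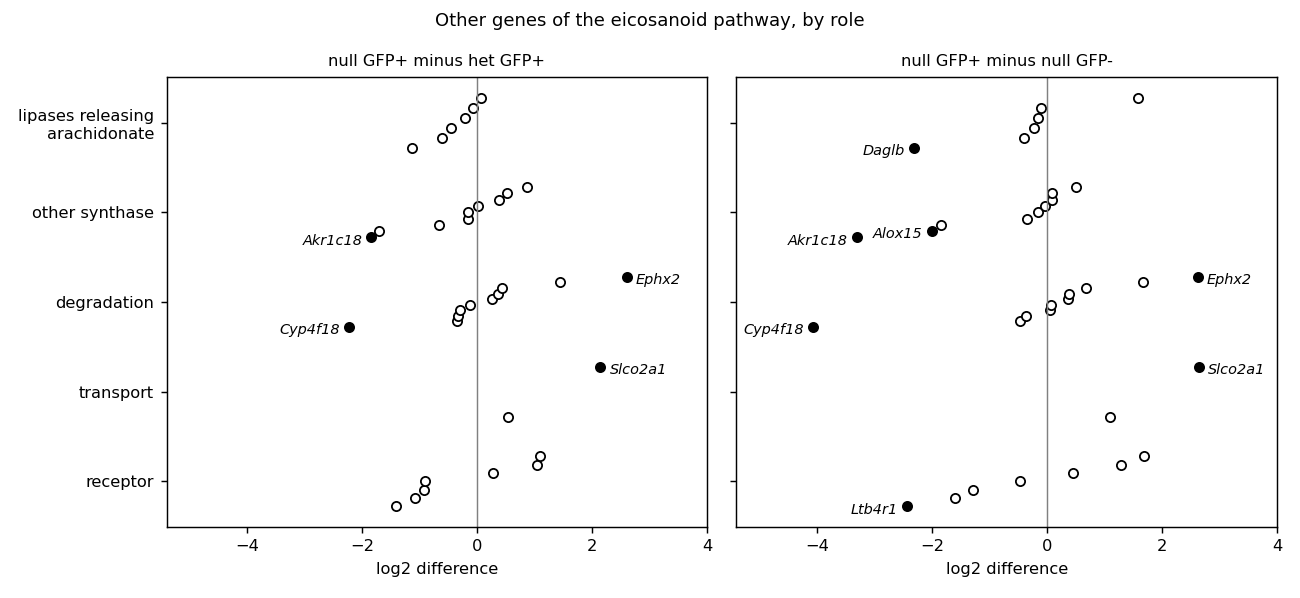
Log2 difference (horizontal axis) of 34 other genes of the pathway, by role, in the null-labelled GFP+ libraries against those labelled het GFP+ (left) and null GFP- (right). Filled points passed limma at an adjusted p under 0.05 and are named, open points did not. Akr1c18, above background in all libraries, lies at -1.84 and -3.30, while points of genes below background in the null-labelled GFP+ libraries, such as Cyp4f18, are fitted values and not bounds.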

How the data were processed

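RNA of FACS-isolated cells was measured on Illumina Mouse-6 V2 BeadChips. The deposited intensities are linear and already share 1 distribution (sorted values differ by at most 0.38% from their mean). The authors' normalization method was not given in the sources used here. A second deposited table holds detection p-values. Its 4 signal columns could not be matched to a label and were left out, and its p-values entered only where no column had to be assigned to a library. Normexp background correction (mean 108, standard deviation 13.6, from detection p-values), an offset of 16, log2 and quantile normalization were followed by limma 3.58.1 in R 4.3.3. Probes detected (p under 0.01) by 1 or more arrays, 17379 in all, were fitted in 3 groups, two-sided, with Benjamini-Hochberg adjustment over these probes. A gene was represented by its brightest tested probe. Lower bounds of folds were computed on the deposited intensities, a choice made after the values were seen.

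Residual degrees of freedom numbered 1, from the null-labelled GFP+ libraries, with 4.03 prior degrees of freedom, and the spread of the single libraries was assumed to be the same. The labels do not say that the libraries came from separate mice, so p-values measure the spread between these libraries. Precision is limited by the number of arrays. Alternatives covered background, offset, normalization, filter, variance model, test, probe summary and leaving out a library. Of 45281 probes, 34885 had 1 gene symbol, 18 several and 10378 none. The fit was tested on simulated data.

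The members, gene lists and tests were chosen with earlier results of these data known. T cell, B cell, dendritic cell, monocyte and pan-leukocyte lists were added after the values were seen. Named genes were all members, up to 4 passing genes of each pathway list, the 2 brightest genes of each marker list and the 5 nearest profiles. Further list genes are marked as named after their values were seen. Promoter sequences are from RefSeq, assembly GRCm38.p6, while the array files name no genome build. Figures were drawn with matplotlib 3.10.9.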

Additional observations from a re-analysis of the deposited data

How the results depend on the processing

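No paired analysis was possible because the groups share at most 1 library number, so no replicate block could be fitted. Leaving out a null-labelled GFP+ library leaves 1 library a group and no test. The log2 differences of Alox5ap then ranged from -3.52 to -2.49 against het GFP+ and from -4.28 to -3.25 against null GFP-, and those of Alox5 from -2.77 to -2.70 and from -2.42 to -2.35. With no filter on dim probes, and by the methods' t-test after an added Benjamini-Hochberg adjustment, 0 of the 10 genes and 0 other pathway genes were called in either direction in both comparisons, where limma called 2 of the 10 lower, and of the other pathway genes 2 higher and 2 lower against het GFP+ and 2 higher and 5 lower against null GFP-. At an unadjusted p under 0.05 with over 2-fold difference, that t-test called 1 of the 10 genes lower in each comparison, Alox5, and of the other pathway genes 0 higher and 1 lower against het GFP+ and 1 higher and 2 lower against null GFP-, where it called 0.992% of all genes higher and 1.87% lower, and 1.06% higher and 2.04% lower. On the mean of all tested probes, 4 other pathway genes were lower against het GFP+ and 4 were higher against null GFP-. Under the remaining settings with a test, 2 or 3 other pathway genes were higher and 2 or 3 lower against het GFP+. Against null GFP-, 2 or 3 were higher and 4 to 6 lower. Without background correction, 0 genes were over 2-fold lower in the het-labelled GFP+ library than in null GFP-. Under the other background, offset, normalization, filter and variance settings run, the counts of called members were the same. The direction of Alox5ap and Alox5 in the comparisons with null GFP+ held under all alternatives run, 12 against het GFP+ and 11 against null GFP-, with the fitted Alox5 difference, measured near background, between -2.77 and -1.32 and between -2.42 and -1.11. Signal near background limits Hpgds, Ptgs2, Ptgds and Alox5.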

Other observations

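Several pathway genes were higher in the null-labelled GFP- library than in the het-labelled GFP+ library, a comparison with 1 library on each side and no test. Of the 34 other pathway genes tested, 5 were over 2-fold lower and 1 over 2-fold higher in the het-labelled GFP+ library, where 1.78% and 1.26% of all genes were. The 5 were Cyp4f18 (222, against 558), Alox15 (103, against 195), Akr1c18 (2627, against 7067), Daglb (4377, against 9885) and Ltb4r1 (191, against 294), and these, like Pla2g2e, are named here after their values were seen. The counts are by fitted size, and Alox15 was below background in the het-labelled GFP+ library, at least 1.27-fold lower than in null GFP-. The 1 over 2-fold higher was Pla2g2e, a secreted phospholipase, at 205, against 126, which is below the detection signal of 153, so that it was at least 1.34-fold higher. Summed mast cell genes read 74826 in the het-labelled GFP+ library, against 75688 in null GFP-, neutrophil genes 27419, against 27606, and macrophage genes 16940, against 9750.

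Lists of other blood cells, added after the values were seen, had few tested genes for lymphocytes and dendritic cells. Of 6 T cell genes 1 was tested, Cd3e, which was below background in all 4 libraries. Of 5 B cell genes 1 was tested, Cd79b, at 187 and 306 in the null-labelled GFP+ libraries, against 213 and 152 in the others, and it did not pass. Of 6 dendritic cell genes 1 was tested, Zbtb46, at 235 and 209, against 115 and 134, which were below background. It thus entered the test only through the null-labelled GFP+ libraries. Zbtb46 was at least 1.45-fold higher there than in het GFP+ (adjusted p = 0.0321 from limma) and did not pass against null GFP- (adjusted p = 0.0644). Genes shared by all leukocytes summed, over 6 tested, to 2556 and 1567 in the null-labelled GFP+ libraries, against 12676 in the het-labelled GFP+ library and 16157 in the null-labelled GFP- library, with 5 of 6 lower against het GFP+ and 6 of 6 lower against null GFP- (limma). Of these 6, 3 were above background in each null-labelled GFP+ library. The pan-leukocyte list holds Coro1a and Laptm5, which were also among the nearest profiles of Alox5ap. Of 5 tested monocyte genes, 2 were lower against het GFP+ and 1 against null GFP-. Ly6c1 read 20276 and 16102, against 30400 and 25638, and Plac8 read 12678 and 12859, against 12859 and 12109. These brightest genes of the monocyte list did not pass in either comparison.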
